A study of Brachypodium distachyon with 6 samples.

Results

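Sucrose synthase cleaves sucrose with UDP into UDP-glucose and fructose in a reversible reaction, and plants carry it as a small family of isoforms. In roots and other sink tissues it is one of the entry points of imported sucrose, beside invertase, and its UDP-glucose is a substrate for cellulose and callose. Sucrose-phosphate synthase works on the synthesis side, joining UDP-glucose and fructose 6-phosphate to sucrose 6-phosphate. The transcripts of 4 sucrose synthases (Bradi1g46670, Bradi1g60320, Bradi1g20890 and Bradi3g60687) and 1 sucrose-phosphate synthase (Bradi1g30520) were described in roots of *Brachypodium distachyon*, a model grass, with and without cutting of the leaves. They are 5 of the 19538 genes listed, all of which have at least 1 RPM in at least 3 libraries, so that ranks and shares of genes refer to a list without the lowest genes. All 5 stand in the study's list for sucrose synthase activity, which was made from genes that differed between pruned and intact roots in these same libraries. The difference between the groups therefore chose the members. It is given as a description with no test, and each member's values are set against the spread of the libraries.

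All plants were of the inbred line Bd21 and grew as seedlings for 2 weeks in boxes, on agar with diluted Murashige and Skoog medium that contained sucrose. Within each box, some seedlings were cut with scissors down to a stub of the shoot (pruned), and the rest were left uncut (intact). Root RNA was taken 2 days after the cutting and sequenced as 3 intact and 3 pruned libraries, which the study's methods call biological replicates. The number of plants behind a library and the box it came from are not given in the sources used here.

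The intact libraries held 18150223 to 21292543 reads counted on genes, and the pruned libraries 17278649 to 28420464. Pruned replicates 2 and 3 were counted from R1 reads only, and the other 4 libraries from paired-end reads. Values are RPM, reads per 1000000 reads counted in the library, and are not divided by gene length. A larger RPM or share of one isoform thus means more reads, and transcript numbers of different isoforms cannot be compared. Of all 19538 genes, 56.0% had no overlap between the 3 intact and the 3 pruned libraries, 22.7% with lower and 33.4% with higher values in pruned roots. All 5 members had no overlap, 4 of them lower and 1 higher, and since the same contrast chose them nothing is read from this count. In RNA of whole roots, fewer cells of a type and less RNA per cell cannot be told apart. Markers of root cell types and of leaf tissue were not analysed here.

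The names of the members differ in certainty. One supplementary gene table of the study prints sucrose synthase 1 for Bradi1g46670 and for Bradi1g60320, sucrose synthase 2 for Bradi1g20890 and probable sucrose-phosphate synthase 3 for Bradi1g30520. In the RefSeq gene table of assembly Brachypodium_distachyon_v3.0, genes of these names lie on chromosome 1 in the same order as these identifiers. This comparison covers only names that the study prints, so it is no independent naming of the identifiers. Bradi3g60687 is not named in that supplementary table, and a gene called sucrose synthase 7-like lies on chromosome 3 in RefSeq. A second supplementary table mostly prints other names beside the same identifiers, among them a starch branching enzyme for Bradi1g46670, sucrose synthase 7-like for Bradi1g30520 and sucrose-phosphate synthase for Bradi3g60687. One of its sheets prints sucrose synthase 1 for Bradi1g60320, but with the RefSeq gene at the place of Bradi1g46670 in the order on chromosome 1. The 5 identifiers could not be matched to RefSeq directly, so the enzyme names, and those of Bradi3g60687 and Bradi1g30520 most of all, rest on the study's lists.

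Of the 4 sucrose synthases described, Bradi1g46670 gave most of the reads and was lower by 33.0% after pruning. It had 1731, 1622 and 1687 RPM in intact replicates 1, 2 and 3, and 1109, 1150 and 1116 RPM in pruned replicates 1, 2 and 3. All pruned libraries lay below all intact ones, with a gap of 472 RPM between the nearest libraries. The means were 1680 ± 54.7 RPM (SD, n = 3) in intact and 1125 ± 21.8 RPM (SD, n = 3) in pruned roots, a log2 fold change of -0.58 (SE 0.044). Each library counted 19166 to 36851 of its reads, so counting error was 0.521% to 0.722% of the value, below the coefficient of variation of 3.26% among intact and 1.94% among pruned libraries. By mean RPM it was gene 35 of 19538 in intact roots and gene 59 in pruned roots. Its place was 30 to 38 in the single intact libraries and 59 to 62 in the pruned ones. It is thus among the most abundant root transcripts by reads in both groups.

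Bradi1g60320, which bears the same enzyme name, was lower by 42.1%. It had 516, 473 and 511 RPM in intact replicates 1 to 3 and 287, 295 and 287 RPM in pruned replicates 1 to 3. The pruned libraries lay close together and 178 RPM or more below every intact library. The means were 500.2 ± 23.2 RPM and 289.7 ± 4.70 RPM (SD, n = 3 each), with a log2 fold change of -0.79 (SE 0.044). It moved from place 238 to place 519 among all genes. The study's annotation puts Bradi1g60320 also under response to carbon dioxide, and Bradi1g46670 under response to stress. The list for response to stress is printed only in part, so whether other members belong to it is not known.

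Bradi1g20890, named sucrose synthase 2, gave few reads in roots and had the deepest relative loss of the 5 genes, 62.5%. Its level was 24.4, 22.1 and 20.7 RPM in the intact and 8.91, 7.49 and 8.79 RPM in the pruned libraries. The highest pruned library was 11.7 RPM below the lowest intact one. The log2 fold change was -1.36 (SE 0.090), from 22.4 ± 1.87 to 8.40 ± 0.785 RPM (SD, n = 3 each). Between 154 and 519 reads stood behind each value, a counting error of 4.39% to 8.06%. The ratio of a pruned to an intact library ranged from 0.307 to 0.431 over the 9 pairs of libraries. The gene went from place 8164 to place 12945.

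Bradi3g60687 was the only one of the 5 genes with higher values in pruned roots, at place 17962 of 19538 by reads in intact roots and place 16187 in pruned roots. It had 1.97, 1.49 and 1.71 RPM in intact and 4.17, 2.74 and 3.13 RPM in pruned replicates 1 to 3. The groups did not overlap, but only 0.772 RPM lay between the highest intact and the lowest pruned library. These values rest on 28 to 83 reads per library, with a counting error of up to 18.9%, and the coefficient of variation was 14.0% in intact and 22.0% in pruned roots. The mean went from 1.72 ± 0.242 to 3.35 ± 0.736 RPM (SD, n = 3 each), 1.94 times the intact mean, with a log2 fold change of 0.78 (SE 0.16). The highest value is that of the only paired-end pruned library, and with read layout as a term in the fit the log2 fold change was 1.07. The part of read layout in this difference was not tested.

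The sucrose-phosphate synthase Bradi1g30520 was lower by 41.1%, close to the figure for Bradi1g60320. Its values were 50.3, 46.7 and 50.7 RPM in intact and 28.9, 30.5 and 27.6 RPM in pruned replicates 1 to 3. The groups were 16.2 RPM apart at their nearest. The means were 49.2 ± 2.22 and 29.0 ± 1.45 RPM (SD, n = 3 each), with a log2 fold change of -0.75 (SE 0.060). Its place on the synthesis side rests on the name in one of the study's tables.

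**Figure D1:**
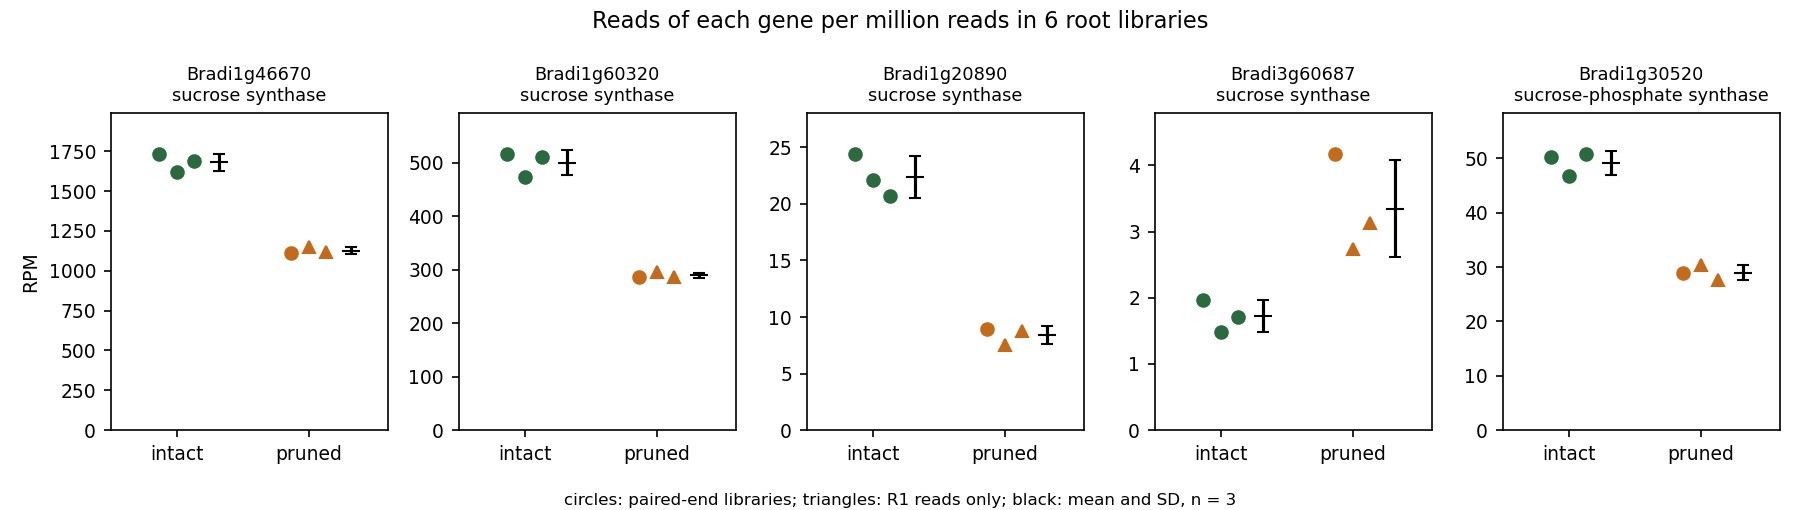
RPM of the 5 genes in each library (vertical axes from 0, a scale for each gene). Points are libraries, circles for paired-end and triangles for R1-only reads, and the black bars give the mean and SD of 3 libraries. Bradi1g46670 had 1622 to 1731 RPM in intact and 1109 to 1150 RPM in pruned roots, and only Bradi3g60687 was higher in pruned roots.

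The 4 sucrose synthases together took 2204 ± 78.2 RPM in intact and 1426 ± 25.1 RPM in pruned roots (SD, n = 3 each). Sucrose synthases outside the study's list were not sought among all genes, so sums and shares refer to these 4. Intact libraries ranged from 2119 to 2273 RPM and pruned libraries from 1409 to 1455 RPM, without overlap. This is 0.220% of all counted reads of intact roots and 0.143% of those of pruned roots, a difference of 35.3%. The sum follows Bradi1g46670 closely, because that isoform holds most of its reads.

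Among the 3 sucrose synthases with lower values, the difference in RPM and the relative difference gave opposite orders. Bradi1g46670 was lower by 555 RPM (SE 34.0), Bradi1g60320 by 210.4 RPM (SE 13.7) and Bradi1g20890 by 14.0 RPM (SE 1.17), while Bradi3g60687 was higher by 1.62 RPM (SE 0.447). Of the 779 RPM by which the first 3 were lower, Bradi1g46670 accounted for 71.2%, Bradi1g60320 for 27.0% and Bradi1g20890 for 1.80%. The isoform with the smallest relative difference among the 3 thus made up most of the reads lost. In intact roots these isoforms held 76.2%, 22.7% and 1.02% of the sucrose synthase reads, so shares of the loss largely follow abundance. Bradi1g46670 had a smaller share of the loss than of the intact reads, and Bradi1g60320 and Bradi1g20890 larger ones. The 20.2 RPM (SE 1.53) of the sucrose-phosphate synthase exceeded the loss of Bradi1g20890.

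Among all genes, the loss of Bradi1g46670 ranked 18 by RPM and that of Bradi1g60320 ranked 82. Bradi1g30520 and Bradi1g20890 came at 903 and 1214. A lower pruned mean was found for 8685 genes, which together lost 116380 RPM. The 3 sucrose synthases with lower values made up 0.670% of this loss. Since RPM of a library sum to a constant, these losses are matched by gains of other genes.

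**Figure D2:**
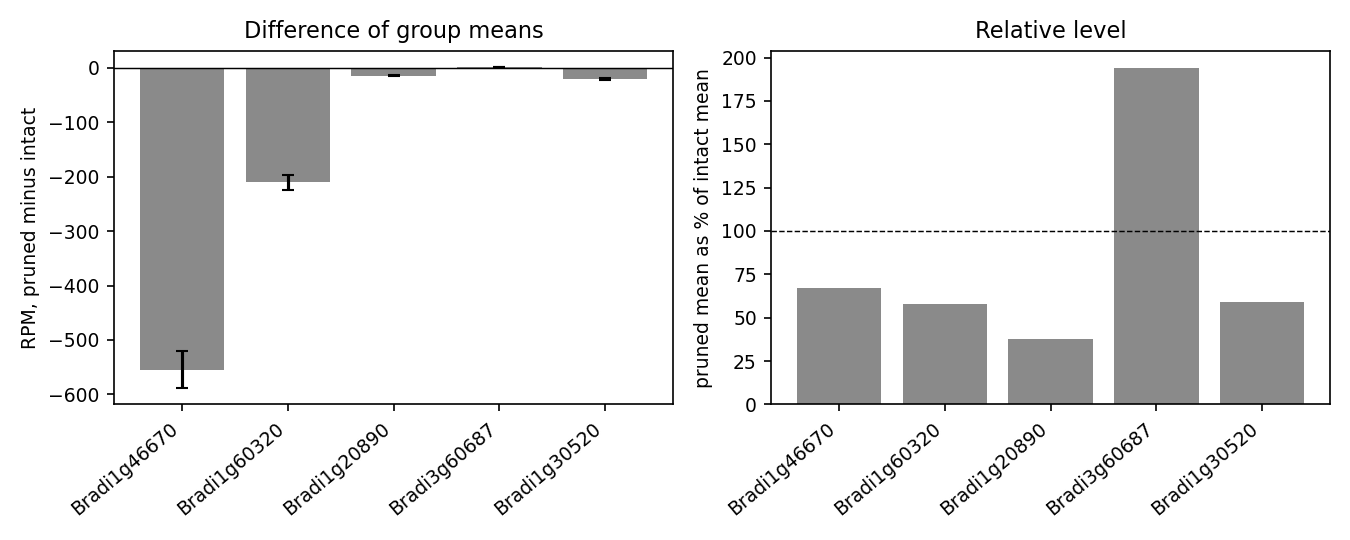
Left, the difference of the group means in RPM (pruned minus intact; error bars are the SE of the difference, n = 3 per group). Right, the pruned mean as a percentage of the intact mean, with the dashed line at equal means. Bradi1g46670 had the largest difference in RPM, 555, and Bradi1g20890 the deepest relative loss, 62.5%.

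The make-up of the summed reads of the 4 sucrose synthases differed between the groups as well. Bradi1g46670 took 76.1%, 76.5% and 76.0% of them in the intact libraries and 78.7%, 79.0% and 78.8% in the pruned ones. Bradi1g60320 took 22.7%, 22.3% and 23.0% in intact and 20.3% in each pruned library. The leading isoform therefore had a larger part of a smaller total, by 2.64 percentage points (SE 0.186), and Bradi1g60320 a smaller one, with a change of -2.38 points (SE 0.194).

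The share of Bradi1g20890 went from 1.02% ± 0.0751 to 0.590% ± 0.0648 (SD, n = 3 each). Bradi3g60687 went from 0.0780% ± 0.00828 to 0.235% ± 0.0549, and in the pruned libraries it was 0.296%, 0.189% and 0.221%. No share overlapped between the groups. Shares of a library sum to a constant, so they are not separate results. Since the same contrast chose the members, nothing is read from this lack of overlap. The order of the 4 isoforms by reads was the same in all 6 libraries.

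**Figure D3:**
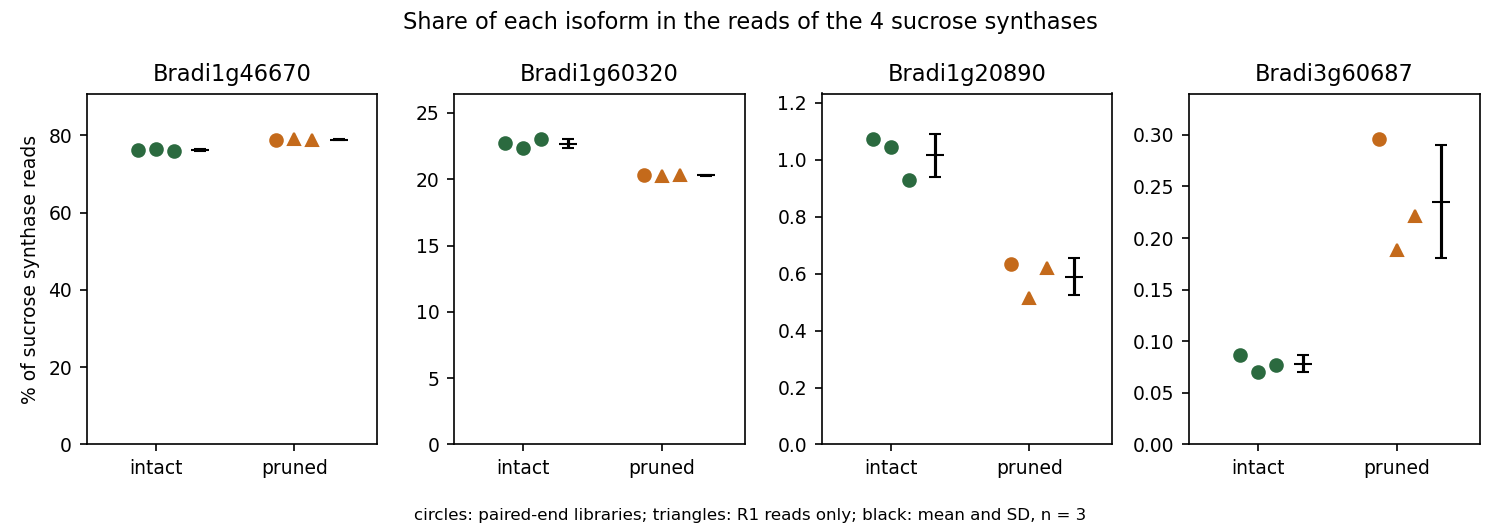
Share of each isoform in the summed reads of the 4 sucrose synthases (percent, vertical axes from 0, a scale for each isoform). Circles are paired-end and triangles R1-only libraries, and black bars give the mean and SD of 3 libraries. Bradi1g46670 and Bradi3g60687 had larger shares in pruned roots, Bradi1g60320 and Bradi1g20890 smaller ones.

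Ratios of 2 members within a library do not change when a library is scaled by a single factor. The RPM of Bradi1g46670 over that of Bradi1g60320 was 3.35, 3.43 and 3.30 in the intact and 3.87, 3.90 and 3.88 in the pruned libraries. The means were 3.88 ± 0.0126 in pruned and 3.36 ± 0.0623 in intact roots (SD, n = 3 each). Counting error of Bradi1g60320 alone was 1.09% to 1.42% in the pruned libraries, more than the spread of the pruned ratios. Nothing is therefore read from the closeness of the pruned ratios. Both genes carry the name sucrose synthase 1, and their reads were not lower by the same factor.

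The ratio of Bradi1g46670 to Bradi1g20890 went from 75.3 ± 5.60 to 135 ± 16.0. The widest shift was that between the 2 minor isoforms, with Bradi1g20890 over Bradi3g60687 at 13.1 ± 1.52 in intact and 2.56 ± 0.366 in pruned roots (SD, n = 3 each). The 4 sucrose synthases over the sucrose-phosphate synthase gave 45.2, 45.4 and 43.7 in intact and 48.7, 47.8 and 51.3 in pruned roots. This last ratio differed by 9.96%, the smallest shift of these 4 ratios.

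**Figure D4:**
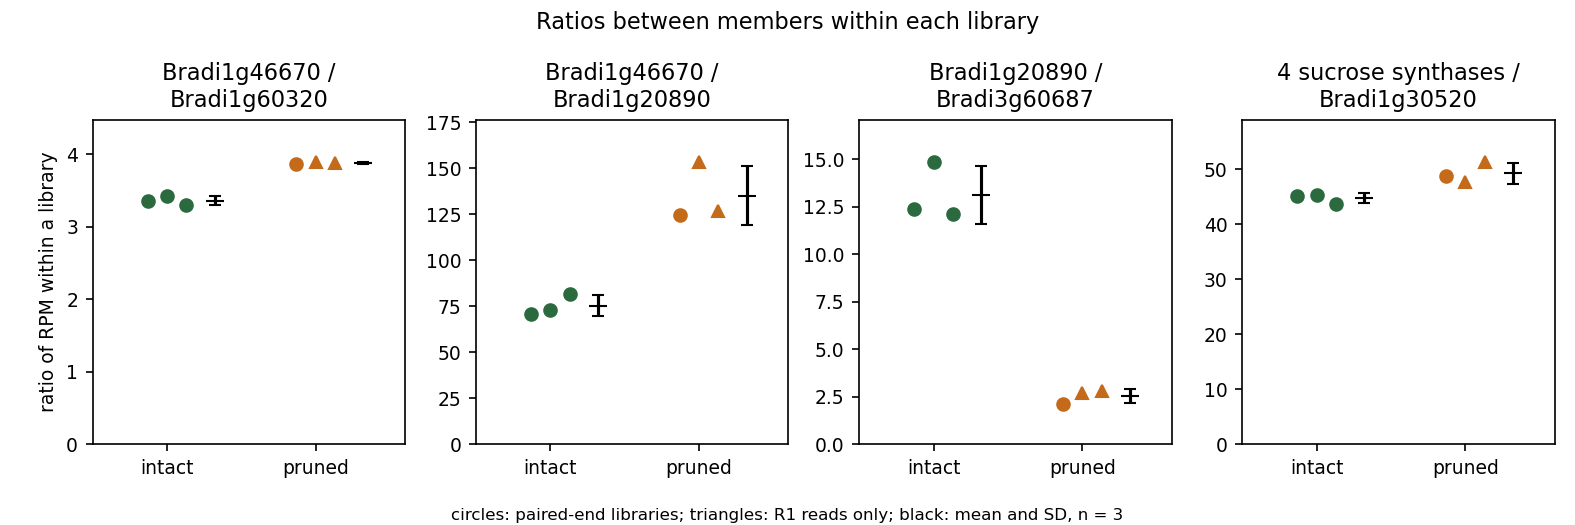
Ratios of RPM between members within each library (no unit, vertical axes from 0, a scale for each ratio). Circles are paired-end and triangles R1-only libraries, and black bars give the mean and SD of 3 libraries. The ratio of Bradi1g46670 to Bradi1g60320 was 3.30 to 3.43 in intact and 3.87 to 3.90 in pruned roots.

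The median log2 fold change of all genes was 0.04, against -0.75 for the 5 members, the value of the sucrose-phosphate synthase Bradi1g30520. The same contrast chose the members, so this distance and the counts that follow are descriptions with no test. Of 75 genes with at least 1000 RPM in intact roots, 57.3% had a lower pruned mean and the median of log2 fold changes was -0.12. Among these 75 genes, 16 had a lower log2 fold change than Bradi1g46670. Of 512 genes with at least 300 RPM, 52 lay below Bradi1g60320. Of 11977 genes with at least 10 RPM, 129 lay below Bradi1g20890 and 386 below Bradi1g30520. Bradi3g60687 had 772 genes above it among 19157 with at least 1 RPM.

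**Figure D5:**
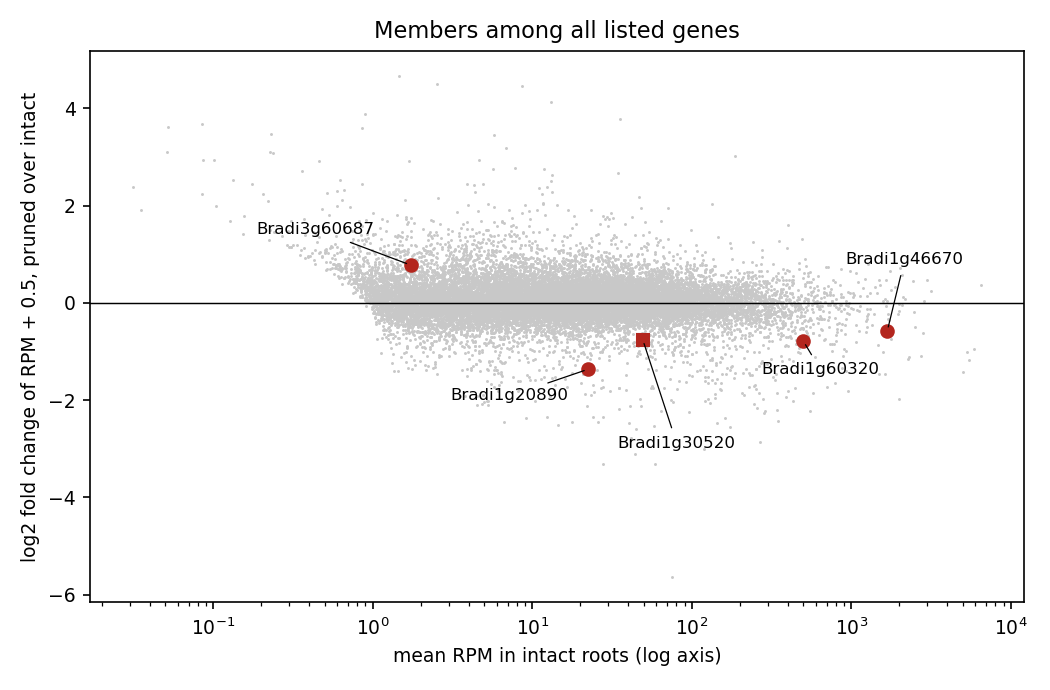
Log2 fold change (pruned over intact, of RPM + 0.5) against the mean RPM in intact roots (log axis) for all listed genes in grey. Red circles are the 4 sucrose synthases and the red square is the sucrose-phosphate synthase. Bradi1g46670 lies at the abundant end, and the members span log2 fold changes from -1.36 to 0.78.

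Genes with a pattern like those of the 2 leading isoforms were sought among 2104 genes with a mean of at least 100 RPM. Likeness was the root mean square difference of log2 values over the 6 libraries, each gene centred on its intact mean. Nearest to Bradi1g46670 were Bradi2g05480 with a difference of 0.013, Bradi3g57450 with 0.027 and Bradi5g25610 with 0.029. Nearest to Bradi1g60320 were Bradi1g63020 with 0.031, Bradi2g34770 with 0.039 and Bradi4g31040 with 0.039. The 2 isoforms differed from each other by 0.15. The genes named were picked as the smallest differences among 2104 genes, so nothing is read from their lying closer.

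The other genes of the study's lists around the members were chosen by the same contrast, so their directions carry no test either. In its list for oligosaccharide metabolic process, the 3 genes that are no members comprised 2 lower genes, Bradi1g18650 (83.2 to 51.4 RPM) and Bradi3g01700 (7.41 to 5.04 RPM), and 1 higher gene, Bradi1g06970 (2.62 to 8.92 RPM). In the wider list for transfer of hexosyl groups, limma's fit with Benjamini-Hochberg adjustment over all genes called 7 of the 19 other genes lower and 12 higher after pruning, the median of their log2 fold changes being 0.60. Bradi1g18650 stands in both lists and is counted as lower in each. Over all genes the fit called 20.2% lower and 30.1% higher (3941 and 5889 genes). This excess of higher calls depended on the scaling, with 4810 genes lower and 5103 higher after median-ratio scaling and 5002 lower and 5012 higher after quantile normalization. By log2 fold change, the largest rise in that list was Bradi3g58700 (2.78, from 7.84 to 55.6 RPM) and the largest fall Bradi1g29850 (-0.89, from 12.7 to 6.60 RPM). In RPM, Bradi3g18590, chosen after its values were seen, had a larger fall, from 538.6 to 336.2 RPM. Invertases, sugar transporters and genes of low oxygen were not analysed here.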

How the data were processed

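Root RNAseq libraries of 3 intact and 3 pruned samples were grouped by the submitters' labels. The authors deposited RPM for 19538 genes. As the study describes, trimmed reads were mapped to the Phytozome genome and uniquely mapped reads counted per gene, and the submitters' processing notes name TopHat and HTSeq. A strand setting and gene lengths are not given in the sources used here. How far reads of similar isoforms were dropped by unique mapping was not tested.

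In each library the RPM sum to 1000000 and step evenly, and division by the step gave read numbers that were whole to within 0.01 for 100.0% of genes. Counting errors come from these reads and cover counting only. Log2 fold changes and SE come from limma 3.58.1 in R 4.3.3 (lmFit, eBayes with trend) on log2(RPM + 0.5), fitted to all genes, so low genes are understated. All deposited genes have at least 1 RPM in at least 3 libraries, so filters at 0.5 or 1 RPM removed no gene and are no check of the results. Genes were called at an adjusted p of at most 0.05. Percentages, shares, ratios and ranks used RPM without a pseudocount, in Python 3.11.15 with pandas 2.3.3. Fits were tested on simulated data.

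The members and lists were chosen with earlier results of these data known. Genes named are the 5 members, the 3 nearest in pattern to each of the 2 leading isoforms, and, from the study's lists, the 3 other genes of the shorter list and the largest rise and fall of the longer one. Bradi3g18590 of the longer list was named in addition, after its values were seen. Lists by gene product were planned but could not be made, since 0 identifiers matched the RefSeq table. Alternatives were pseudocounts of 0.1 and 1, other filters, median-ratio scaling, quantile normalization, limma without trend, edgeR 4.0.16 and DESeq2 1.42.0 on recovered reads, read layout or replicate number as a term, and leaving out each library. The ratio of mean RPM, the paired-end libraries alone and shares that include the sucrose-phosphate synthase were added after seeing the data.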

Additional observations from a re-analysis of the deposited data

How the results depend on the processing

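No member changed direction under any alternative. The members were chosen by this contrast and their groups did not overlap. Leaving out a library, another pseudocount, the filters, limma without trend and a term for layout or replicate therefore could not reverse a direction. A direction could differ only under the scalings, edgeR or DESeq2. The log2 fold change of Bradi1g46670 was -0.63 with DESeq2, -0.62 with edgeR, -0.63 with median-ratio scaling and -0.53 with quantile normalization. That of the 4 summed sucrose synthases (-0.63) was -0.67 with median-ratio scaling and -0.58 with quantile normalization. Those scalings put the median of all genes at -0.003 and -0.015. With read layout as a term, Bradi3g60687 was at 1.07, and among paired-end libraries its share differed by 0.218 percentage points instead of 0.157. In both cases the pruned value rests on pruned replicate 1 alone. Leaving out each library in turn gave -0.60 to -0.56 for Bradi1g46670, -0.82 to -0.76 for Bradi1g60320, -1.42 to -1.29 for Bradi1g20890, 0.63 to 0.89 for Bradi3g60687 and -0.79 to -0.72 for Bradi1g30520. With replicate number as a block, 4091 genes were called lower and 6050 higher, against 3941 and 5889. Each number holds an intact and a pruned library, so log2 fold changes (-0.58 for Bradi1g46670) could not change and are not checked by this block. The calls were nearly balanced with median-ratio scaling (4810 lower, 5103 higher), quantile normalization (5002, 5012), edgeR (4857, 5147) and DESeq2 (4125, 4475). Same-numbered libraries deviated with correlations of -0.026, 0.203 and 0.084, and differently numbered ones with -0.209 to 0.121. These few values cannot decide whether same-numbered libraries are pairs, and the boxes are not given. Reads per length and the whole gene family were not run, because no lengths or gene products were at hand. The depth limits Bradi3g60687 most, with 28 reads in its lowest library.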
